A study of Mus musculus and Mus spretus with 72 samples.

Results

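Brain RNA of house mice was compared with a brain pool of C57BL6, the standard laboratory strain. The comparison rests on the 21 brain arrays of the series' 72 that carry a house mouse sub-species label. They were chosen by that label and not by any measured value. Each 2-colour array set total RNA of 1 male of about 12 weeks against 1 pool of 9 C57BL6 mice of the same tissue. There were 6 arrays of dom (Mus musculus domesticus), 6 of mus (M. m. musculus), 3 of cas (M. m. castaneus) and 6 of ssp, a sub-species of M. musculus that the labels do not name further. The labels do not say whether the mice were caught in the wild or bred in colonies. The 21 liver/kidney (labelled kidneyliver) and 21 testis arrays of the same groups, each against its own pool, served to tell brain ratios from ratios that appear in every tissue. The 3 brain arrays of spretus (M. spretus, another species) stand outside the comparison and are given beside it.

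C57BL6 is a classical inbred strain whose genome is a mosaic derived mostly from M. m. domesticus, with smaller contributions of the other sub-species. A transcript that differs from the strain in every sub-species may therefore mark the strain as well as the mice set against it, and a reference design cannot separate these. In the brain, bulk RNA mixes neurons, astrocytes, oligodendrocytes, microglia and vessel cells, so fewer cells of a type and less RNA per cell cannot be told apart. The arrays hold ratios and no levels, so the tissue could not be checked by the presence of its markers.

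Values are log2 ratios of sample over pool. This direction is likely but not stated: by the labels, channel 1 carried the pool and channel 2 the mouse throughout. The base of the logarithm is not stated either and is taken as 2. No dyes were swapped, and the pool is 1 control sample, so a test against 0 leaves out the spread of the pool itself. Each brain array had 42947 to 44398 spots with a value, and the median correlation between both spots of a probe was 0.43 (0.27 to 0.67). The third cas array stood apart, with an SD over probes of 0.41 against 0.15 to 0.31 on the others, and a median correlation of -0.05 with the other house mouse brain arrays. Counts, and many single results that rest on it, are given with and without it. For array 08 of mus the title and the source label conflict, the latter naming domesticus, and it was kept in mus. Arrays also fell into sets that miss the same spots, 13 in one (dom 6, mus 4, ssp 3), 7 in another (cas 2, mus 2, ssp 3) and the third cas array alone. The labels do not say what these sets are.

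Brain transcripts of the 4 groups departed from the C57BL6 pool by small amounts. The mean over the 4 groups, each weighted equally, was tested against 0 with limma and called at a Benjamini-Hochberg adjusted p under 0.05. Of 20639 probes, 1558 were called (7.55%), 933 higher (4.52%) and 625 lower (3.03%) than the pool. The 4 group means had the same sign in 1240 of them (6.01% of all probes), 740 higher (3.59%) and 500 lower (2.42%). Over all probes, called or not, the 4 signs agreed in 22.3%. Only 32 probes were both called and at least 1.5-fold from the pool (0.155%), 17 higher (0.0824%) and 15 lower (0.0727%). The median absolute mean over the 4 groups was 0.05, close to the median standard error of 0.04. Leaving out the third cas array gave 1739 called probes, of which 1098 were among the 1558. Within the first set of 13 arrays 2263 probes were called, and within the second set of 7 arrays 19. Without the second cas array 776 probes were called with 1 sign in all groups. A mean over 3 of the 4 groups, tried after the data were seen, called 228 probes without ssp, 348 without mus, 627 without dom and 3591 without cas.

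The groups contributed unequally. Tested alone against the pool, ssp had 1832 called probes (8.88%), mus 387 (1.88%), cas 9 (0.0436%) and dom 6 (0.0291%). In mus 262 were higher (1.27%) and 125 lower (0.606%), and in ssp 954 were higher (4.62%) and 878 lower (4.25%). The median absolute group mean was 0.05 in dom, 0.07 in mus, 0.09 in cas and 0.09 in ssp. The median standard error was 0.10 in cas, with 3 arrays, and 0.07 in the others. The 4 groups share 1 estimate of the spread, and these counts depend on the setting. After quantile normalisation dom had 485 and ssp 722, and with weights for array quality dom had 531 and ssp 1571. Single arrays moved them too. The dom count was 0 without its array 10 or 13 and 73 without its array 1. The mus count was 134 without its array 4 and 653 without the third cas array. The cas count was 2 without array 3 of dom, 379 without the first cas array and 751 without the second. The ssp count was 714 without its array 6 and 2596 without the third cas array. A test of differences among the 4 groups called 6 probes (0.0291%). The named ones were Psmg4, Hspa5, Lars and S100pbp, and 2 had no gene name. Hspa5, a chaperone that folds secreted proteins, was 0.25 in dom and -0.47 in mus (adjusted p = 0.0455, limma F test).

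The largest departures in brain were found again in the other tissues. In liver/kidney 7346 of 20652 probes were called (35.6%) and in testis 2783 of 20781 (13.4%). Of the 1558 brain calls, 952 were also called with the same sign in liver/kidney, which is 61.1% of the brain calls and 13% of the liver/kidney calls. In testis this held for 327, or 21% of the brain calls and 11.7% of the testis calls. Brain and liver/kidney had the same sign in 89.4% of the brain calls, against 69.9% of all probes measured in the 3 tissues. For brain and testis the shares were 58.2% and 49.7%. A set of 241 probes (1.17%), 139 higher (0.673%) and 102 lower (0.494%), was called with 1 sign in all 3 tissues. No dyes were swapped in any tissue, so a bias of a probe or dye would recur in all 3 and cannot be told apart from a difference that the tissues share. All 17 probes that were called in brain and at least 1.5-fold higher belonged to it. Of the 15 that were at least 1.5-fold lower, 15 were called in liver/kidney and 4 in testis.

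**Figure D1:**
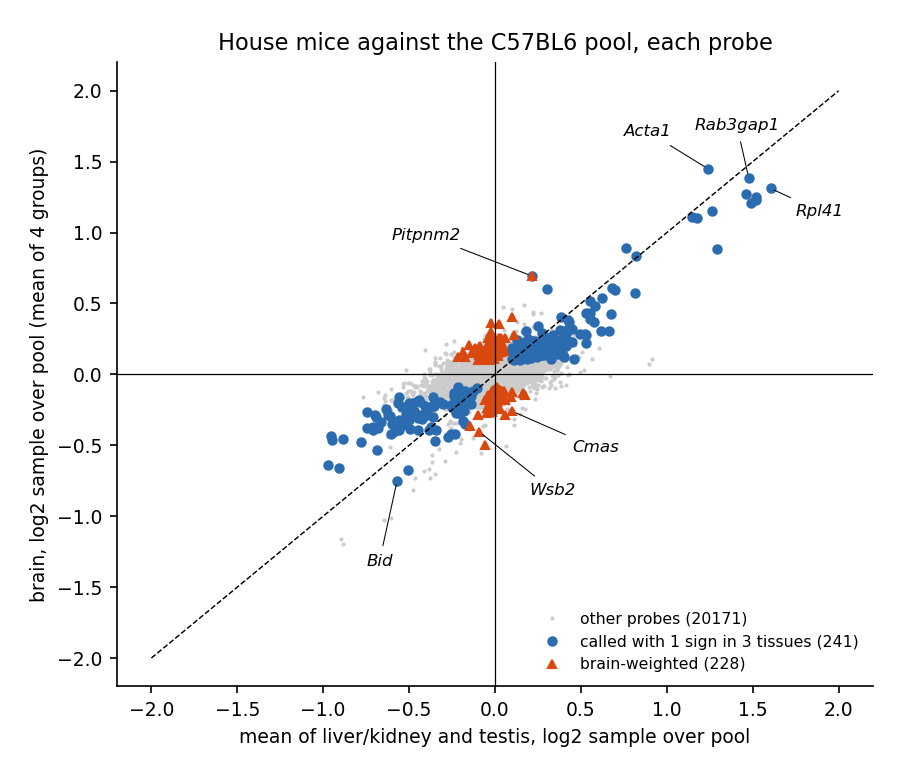
Each point is 1 probe, with the mean log2 ratio of house mice over the C57BL6 pool in brain on the vertical axis and the mean of liver/kidney and testis on the horizontal axis; the dashed line marks equal ratios. The 241 probes called with 1 sign in all tissues (circles) run along the line up to 1.45 in brain, while the 228 brain-weighted probes (triangles) stay within 0.70 of 0 in brain, and 127 of them were called in neither other tissue. The sets overlap, and Pitpnm2 belongs to both.

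Acta1, Rab3gap1, Rpl41 and Snrpc headed the shared set on the higher side. Acta1 encodes skeletal muscle alpha-actin. In brain its log2 ratio ran from -1.05 through a median of 0.43 to 2.07 in dom, from 0.60 through 2.41 to 3.00 in mus, and from 0.33 through 1.74 to 2.62 in ssp, and the 3 cas arrays gave 2.64, 0.58 and 1.70. Of the 21 arrays 20 lay above 0, and the groups overlapped widely. The mean was 1.45 ± 0.19 (SE, adjusted p = 0.000209, limma), with 1.08 in liver/kidney and 1.39 in testis. The 3 spretus brain arrays ran from -0.68 to 0.06. Brain did not differ detectably from the other tissues (difference 0.21 ± 0.26, adjusted p = 0.71, limma).

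Rab3gap1, the catalytic subunit of a Rab3 GTPase-activating complex that acts on synaptic vesicle traffic, had a mean of 1.39 ± 0.17 in brain, against 1.35 in liver/kidney and 1.60 in testis. Rpl41, a small protein of the large ribosomal subunit, had 1.31 ± 0.17, 1.33 and 1.88. Snrpc, a protein of the U1 splicing particle, had 1.25 ± 0.19, 1.40 and 1.64. Each of the 3 was above 0 on 20 of 21 brain arrays. In all 4 genes dom had the lowest group mean (0.52 to 0.74) and mus the highest (1.67 to 2.13). Across the 21 arrays their ratios moved together, with pairwise Pearson r from 0.83 to 0.93, which is a description over arrays of 4 groups. Within mus, array 08 had the lowest value of all 4 genes, between -0.41 and 0.60. Spretus brain means for the 4 genes lay between -0.23 and 0.17. An olfactory receptor probe, Olfr948, had similar values: 1.10 in brain, against 1.11 in liver/kidney and 1.25 in testis, with -0.79 in spretus brain.

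The shared lower genes were Bid, Hmga2, Mrto4 and Dbt. Bid, a pro-apoptotic member of the Bcl-2 family, averaged -0.75 ± 0.14 on the brain arrays, against -0.55 in liver/kidney and -0.59 in testis. Hmga2, an architectural chromatin protein of embryonic tissue, was below 0 on 20 of 21 brain arrays. Its ratio ran from -0.60 through -0.38 to 0.88 in dom, from -1.28 through -1.05 to -0.65 in mus and from -1.05 through -0.91 to -0.61 in ssp. The cas arrays gave -0.60, -0.59 and -0.53. Every mus and every ssp array lay below every dom and cas array. The mean was -0.66 ± 0.07 (adjusted p = 2.39e-05, limma) in brain and -1.30 in liver/kidney. Brain was less low than the mean of liver/kidney and testis by 0.25 ± 0.08 (adjusted p = 0.0354, limma, and 0.0546 without the third cas array). Mrto4, an assembly factor of the large ribosomal subunit, had -0.48 in brain and -1.16 in liver/kidney. Its difference from the mean of liver/kidney and testis was 0.30 ± 0.07 (adjusted p = 0.00485, limma). For Hmga2 and Mrto4 the testis mean was less low than the brain mean, so these differences come from liver/kidney. They do not test brain against testis alone. Dbt, a subunit of the branched-chain ketoacid dehydrogenase, had -0.47 ± 0.10 in brain, against -0.49 in liver/kidney and -0.20 in testis.

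**Figure D2:**
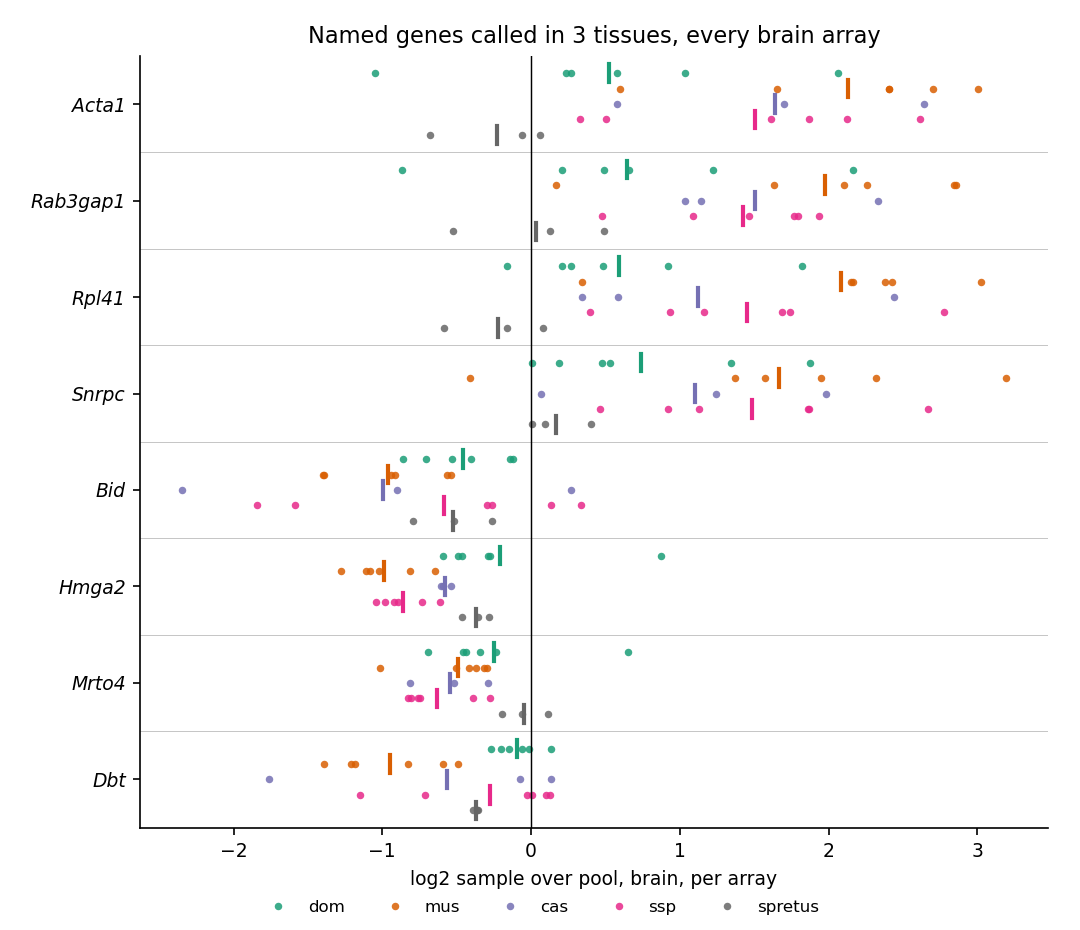
Log2 ratio over the C57BL6 pool on every brain array for the 8 named genes called in 3 tissues, 1 point per array and a bar at the group mean, with spretus below the 4 house mouse groups. Acta1, Rab3gap1, Rpl41 and Snrpc spread widely within groups, with dom lowest of the house mouse groups and spretus means between -0.23 and 0.17, while Hmga2 is below 0 on 20 of 21 house mouse arrays.

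A further pattern joined brain and liver/kidney without testis. Of the 15 probes at least 1.5-fold lower in brain, 11 were not called in testis, where they ran from -0.31 to 0.09, and 8 of the 15 were called in brain minus testis. The 7 with 1 gene name were Mrps18a, Lipf, Tmem94, Septin9, Jph3, Rnf103 and Trav6d-6, chosen after their values were seen. Lipf, gastric lipase, had -1.01 ± 0.24 in brain, against -1.03 in liver/kidney and -0.18 in testis. Rnf103, a ubiquitin ligase of the endoplasmic reticulum, had -0.68 ± 0.14 in brain, against -0.84 in liver/kidney and 0.01 in testis, and brain minus testis was -0.70 ± 0.20 (adjusted p = 0.0141, limma). Jph3, a junctophilin that ties the plasma membrane of neurons to the endoplasmic reticulum, had -0.73 ± 0.16, -0.91 and -0.02. For Mrps18a, Lipf and Tmem94 brain minus testis did not pass (adjusted p 0.0555 to 0.128, limma). In all 7 genes mus had the lowest mean (-2.37 to -1.34). The dom mean lay between -0.43 and -0.02 and was nearest to 0 except for Trav6d-6, where ssp was (-0.24).

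Brain-weighted probes were those called against the pool, with 1 sign in all 4 groups, whose ratio also differed in the same direction from the mean of liver/kidney and testis. In a fit over 63 arrays, 1263 of 20618 probes differed between brain and that mean (6.13%), 776 higher (3.76%) and 487 lower (2.36%) in brain. Wherever a difference from the other tissues is given, it is from their mean. Brain minus liver/kidney called 2114 (10.3%) and brain minus testis 2451 (11.9%). The brain-weighted set held 228 probes (1.1%), 139 higher (0.673%) and 89 lower (0.431%), of which 181 had 1 gene name. Their median absolute ratio was 0.16, against 0.23 in the set shared by 3 tissues. A probe can be in both sets, as Pitpnm2 is. Over these probes the median ratio in the direction of the brain mean was 0.08 in dom, 0.14 in mus, 0.20 in cas and 0.21 in ssp, values that the definition constrains. The median probe had the sign of its mean on 17 of 21 arrays, and 113 probes had it on at least 18. A probe of the set was called with the same sign in liver/kidney in 58 cases and in testis in 11. It was called with the other sign in liver/kidney in 22 cases and in testis in 36, and 127 probes were called in neither.

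The set changed with single arrays. Without the third cas array 268 probes qualified, 132 of them among the 228. Without the first dom array 151 qualified, and 35 of the 228 qualified in each of the 21 runs that left out 1 array. Within the first set of 13 arrays 214 qualified. A mean without ssp gave 25, without mus 16, without dom 123 and without cas 611. Within the second set the tissues could be compared in cas alone, with 2 brain, 3 liver/kidney and 3 testis arrays, and 0 probes qualified.

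**Figure D3:**
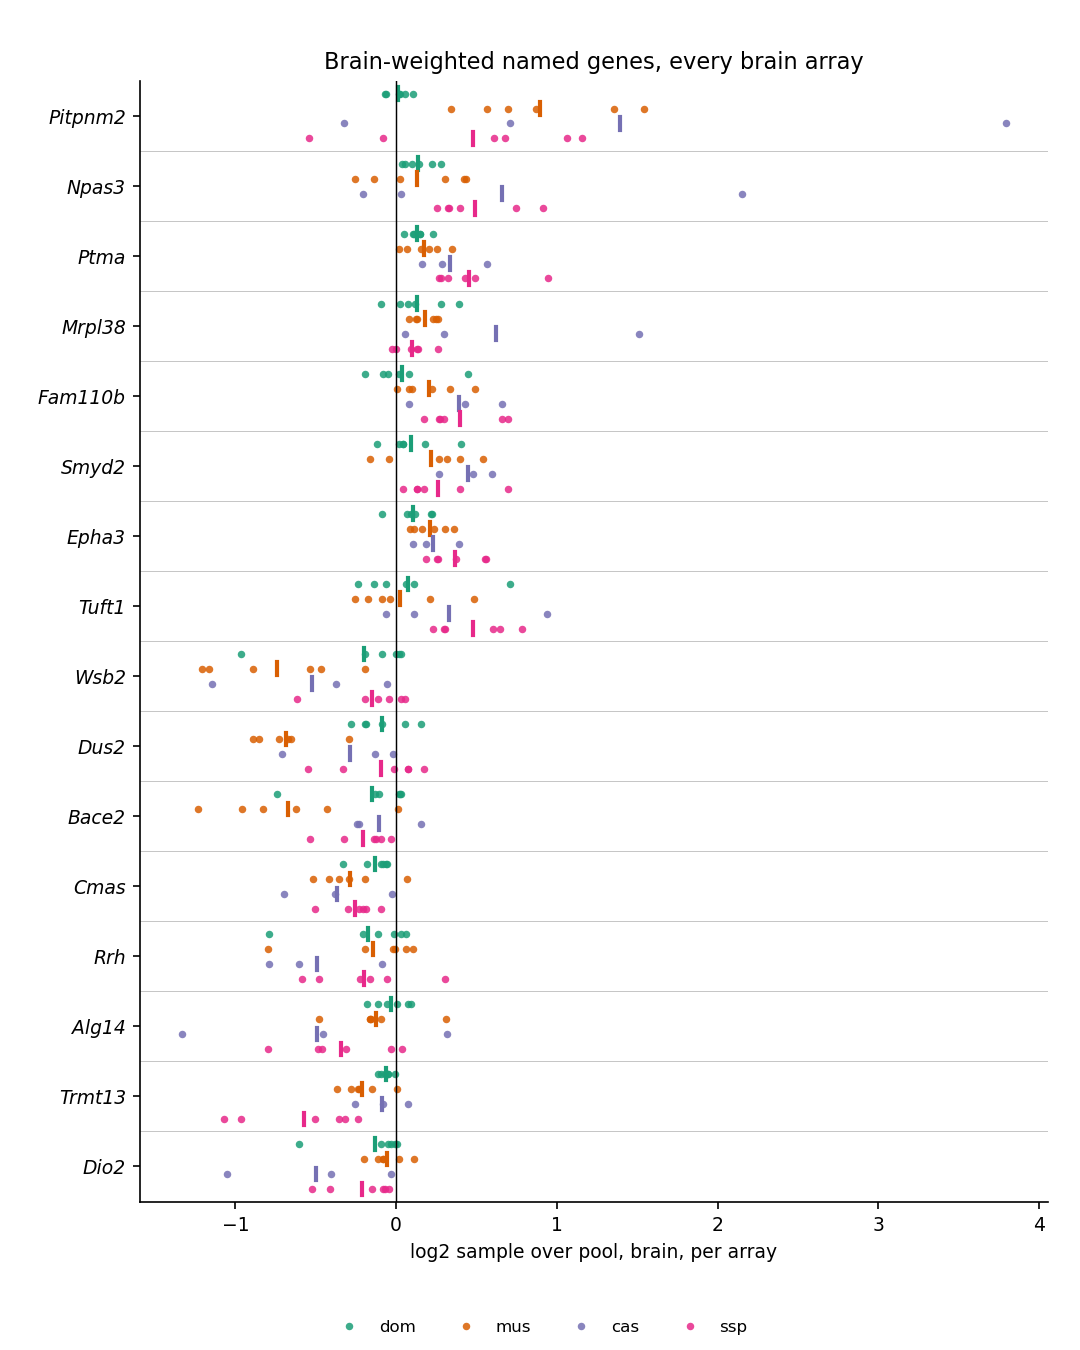
Log2 ratio over the C57BL6 pool on every house mouse brain array for the 16 named brain-weighted genes, 1 point per array and a bar at the group mean. Ptma is above 0 on 21 of 21 arrays and Cmas below 0 on 20 of 21, whereas the mean of Pitpnm2 rests on mus, ssp and 1 cas array at 3.80, with dom at 0.01.

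Ptma, which encodes the abundant acidic nuclear protein prothymosin alpha, was higher than the pool on 21 of 21 brain arrays. It ran from 0.05 through 0.13 to 0.23 in dom, from 0.02 through 0.18 to 0.35 in mus and from 0.27 through 0.38 to 0.94 in ssp, with 0.16, 0.29 and 0.56 in cas. All ssp arrays lay above all dom arrays. The mean was 0.27 ± 0.04 (adjusted p = 0.000411, limma), above the mean of the other tissues by 0.16 ± 0.05 (adjusted p = 0.0336, limma). Without the third cas array that difference had an adjusted p of 0.104 (limma). Brain did not pass against both tissues tested singly. The spretus brain mean was 0.37.

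Epha3, a receptor tyrosine kinase for ephrin-A ligands used in axon guidance, was higher on 20 of 21 arrays. Its values ran from -0.09 through 0.10 to 0.22 in dom, from 0.08 through 0.20 to 0.36 in mus and from 0.19 through 0.31 to 0.56 in ssp. The cas arrays gave 0.39, 0.11 and 0.18. The mean was 0.23 ± 0.03 (adjusted p = 0.000411, limma) in brain, against -0.07 in liver/kidney and 0.10 in testis. Brain was above the mean of the other tissues by 0.21 ± 0.04 (adjusted p = 0.000494, limma), but did not pass against both of them tested singly. The gene stayed brain-weighted in 21 of 21 runs that left out 1 array. The spretus brain mean was -0.14.

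Smyd2, a lysine methyltransferase, had a mean of 0.26 ± 0.05 (adjusted p = 0.00432, limma) in brain, against -0.12 in liver/kidney and 0.04 in testis. It was higher on 18 of 21 arrays and brain-weighted in all 21 runs. Fam110b had 0.26 ± 0.05 in brain against 0.00 in liver/kidney and -0.02 in testis. Mrpl38, a protein of the mitochondrial ribosome, had 0.26 ± 0.06 in brain and 0.25 in liver/kidney but -0.20 in testis, and the first cas array stood at 1.51. Without that array its mean was 0.15 (adjusted p = 0.0136, limma) and the difference from the other tissues did not pass (adjusted p = 0.147, limma). Tuft1, tuftelin of tooth enamel, had 0.23 ± 0.07 with 13 of 21 arrays above 0. It was called in 10 of the 21 runs, and without the second cas array its mean was 0.15 (adjusted p = 0.166, limma).

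Among the named higher genes Pitpnm2 and Npas3 had the largest brain-weighted means, and both means were lower without the third cas array. Pitpnm2, a membrane-bound phosphatidylinositol transfer protein, had a mean of 0.69 ± 0.17 (adjusted p = 0.018, limma) and was also called higher in liver/kidney (0.30) and testis (0.13). Its values ran from -0.07 through 0.02 to 0.10 in dom, from 0.34 through 0.78 to 1.55 in mus and from -0.54 through 0.64 to 1.15 in ssp, with 0.71, -0.33 and 3.80 in cas. Every mus array lay above every dom array. Without the third cas array the mean was 0.39 (adjusted p = 0.0293, limma) and the difference from the other tissues no longer passed (adjusted p = 0.283, limma). Npas3, a neuronal transcription factor of the bHLH-PAS family, had 0.36 ± 0.10. Without that array it had 0.17 (adjusted p = 0.0571, limma). Its other probe stood at -0.06 in brain, not called, and differed from the other tissues in the opposite direction, by -0.14 (adjusted p = 0.00821, limma).

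On the lower side, Cmas had the most arrays below 0 among the 8 named genes. It encodes the synthetase that activates sialic acid for the glycans of gangliosides and of polysialylated neural adhesion molecules. Its ratio ran from -0.33 through -0.09 to -0.05 in dom, from -0.52 through -0.33 to 0.07 in mus and from -0.50 through -0.22 to -0.09 in ssp, with -0.38, -0.03 and -0.70 in cas. It was below 0 on 20 of 21 arrays, and the groups overlapped. The mean was -0.26 ± 0.04 (adjusted p = 0.00115, limma), while liver/kidney was higher than its pool by 0.31 (adjusted p = 0.015, limma) and testis stood at -0.11. Without the third cas array the brain mean was -0.22. Spretus brain had a mean of -0.20.

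Wsb2, a SOCS-box protein of a ubiquitin ligase complex, had the lowest named brain-weighted mean, -0.40 ± 0.08 (adjusted p = 0.00481, limma), with -0.74 in mus, -0.53 in cas, -0.20 in dom and -0.15 in ssp. Its difference from the other tissues did not pass without the first cas array (adjusted p = 0.0871, limma). Dus2, a tRNA dihydrouridine synthase, had -0.29 ± 0.05 and Bace2, a relative of the beta-secretase of the amyloid precursor, -0.29 ± 0.07. Both were lowest in mus (-0.68 each). The other Bace2 probe was at -0.06 and was not called, and Dus2 stayed brain-weighted in 9 of the 21 runs. Trmt13, a tRNA methyltransferase, had -0.23 ± 0.05, was below 0 on 19 of 21 arrays and stood at 0.22 in spretus. Alg14, a subunit of an enzyme of N-glycan assembly, had -0.25 ± 0.07 and was called in 4 of the 21 runs, with a mean of -0.14 without the first cas array (adjusted p = 0.156, limma). Rrh, the opsin-like peropsin of the retinal pigment epithelium, had -0.25 ± 0.07 and did not pass without the second cas array (adjusted p = 0.0894, limma) or the third (adjusted p = 0.055, limma).

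Dio2, the deiodinase that makes active thyroid hormone in astrocytes, was lower than the pool on 18 of 21 brain arrays. Its group means were -0.13 in dom, -0.06 in mus, -0.50 in cas and -0.21 in ssp, and the cas arrays gave -0.03, -0.40 and -1.05. The mean was -0.22 ± 0.05 (adjusted p = 0.0141, limma), with -0.05 in liver/kidney and 0.03 in testis. The difference from the other tissues was -0.21 ± 0.05 (adjusted p = 0.00312, limma), and Dio2 stayed brain-weighted in 21 of 21 runs. Without the third cas array its mean was -0.16 and its difference -0.14. Klf9, a transcription factor induced by thyroid hormone and glucocorticoid, was at -0.14 ± 0.04 in brain (adjusted p = 0.037, limma) and -0.37 in liver/kidney. Unlike Dio2 it was not brain-weighted, with brain minus the other tissues at 0.04 (adjusted p = 0.794, limma). A link between Klf9 and Dio2 was not tested. Klf9 was called in 13 of the 21 runs and did not pass without the third cas array (adjusted p = 0.0818, limma).

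Stricter rules, chosen after the data were seen, left few probes. In 41 of the brain-weighted probes (0.199% of those tested), 28 higher (0.136%) and 13 lower (0.063%), brain differed from liver/kidney and from testis when each was tested alone. Smyd2, Fam110b, Bace2, Alg14, Dio2 and the oligodendrocyte gene Ermn were among them. An unadjusted p under 0.05 with 1 sign in each of the 4 groups was met by 43 probes (0.208%), and 3 of these were brain-weighted (0.0145%), all higher. One has no gene name. The others, named for this count, were Uxt, a prefoldin-like chaperone, and Cdc42ep5, an effector of the GTPase Cdc42. Uxt had group means of 0.14, 0.18, 0.20 and 0.20 in dom, mus, cas and ssp and an overall mean of 0.18 ± 0.03, against -0.13 in liver/kidney and -0.10 in testis. Cdc42ep5 had 0.18, 0.21, 0.25 and 0.22 and an overall mean of 0.21 ± 0.04.

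The spretus brain arrays were set against the same C57BL6 brain pool, so the comparisons share their control. All 3 spretus brain arrays belong to the second missing-spot set. Over all probes, their median correlations with the house mouse brain arrays were -0.03, -0.02 and 0.03. Of the 228 brain-weighted probes, 66 had the sign of the house mouse brain mean in spretus brain. The share over all probes was not counted, so 66 cannot be read as a trait of the set. The median spretus ratio in that direction was -0.09. Among the 8 named higher genes the spretus mean was 0.37 for Ptma, 0.39 for Smyd2 and 0.15 for Tuft1, and -0.06 for Fam110b, -0.04 for Pitpnm2, -0.14 for Epha3, -0.21 for Npas3 and -0.24 for Mrpl38. Among the 8 lower genes it ran from -0.22 for Dus2 to 0.25 for Rrh. Trmt13 at 0.20 to 0.23 and Rrh at 0.17 to 0.35 were above 0 on 3 of 3 spretus arrays.

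Cell-type and pathway lists were described on 1 mean value per gene. Over 13636 genes 1065 were called (7.81%), 672 higher (4.93%) and 393 lower (2.88%), and 180 were brain-weighted (1.32%). The median over all genes was 0.00, with 48.1% above 0. Of 22 neuronal and synaptic vesicle genes 2 were higher and 1 lower, with a median of 0.02. Eno2, neuronal enolase, rose by 0.11 ± 0.03 and Map2, a dendritic microtubule protein, by 0.15 ± 0.04, with 0.38 and 0.44 in liver/kidney. The Eno2 mean lacked 1 sign in all groups, with 0.28 in ssp and 0.21 in dom but 0.00 in mus and -0.05 in cas. Brain minus the other tissues was -0.22 ± 0.05 for Eno2 (adjusted p = 0.00263, limma) and -0.18 ± 0.06 for Map2 (adjusted p = 0.0437, limma). Vamp2, the main synaptic vesicle SNARE, fell by 0.19 on the log2 scale (adjusted p = 0.0491, limma), with -0.36 in mus, -0.36 in cas and -0.08 in ssp but 0.05 in dom. Of 16 interneuron genes 1 was called: Reln, the matrix protein of layer formation, at -0.17 ± 0.04, with that probe called in 7 of the 21 runs and the other not called (-0.17, adjusted p = 0.0887, limma).

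Glial lists held single called genes, where 7.81% of all genes were called. Of 10 myelin genes only Ermn, ermin of late myelinating oligodendrocytes, was called. It had 0.23 ± 0.05 in brain (adjusted p = 0.0109, limma) and 0.02 in liver/kidney, and was above the other tissues by 0.26 ± 0.05 (adjusted p = 0.001, limma). Its cas arrays gave 0.10, 0.32 and 1.11, and without the last its probe had a mean of 0.15 (adjusted p = 0.029, limma). Mbp was -0.03 and Mog 0.09, neither called. Of 11 astrocyte genes 1 was called and 8 lay above 0, with a median of 0.05 in brain, against -0.01 in liver/kidney and -0.01 in testis. Aldoc, the aldolase of astrocytes, had 0.14 ± 0.03 (adjusted p = 0.0167, limma), was higher on 18 of 21 arrays, and was lower than the pool in testis (-0.14). By single probes Gfap (0.13 ± 0.03) and the glutamate transporter Slc1a3 (0.13 ± 0.04) were called too, but their other probes were not, and their gene means of 0.10 and 0.06 did not pass. With 1 array left out, the Gfap probe was called in 21 of the 21 runs and the Slc1a3 probe in 4. None of 10 microglia genes was called, nor any of 14 vessel, 8 choroid plexus and ependyma or 7 pituitary genes. In these 4 lists the medians lay between -0.01 and 0.03. Of 10 cerebellar neuron genes 1 was called: Zic2, a zinc finger factor of granule neurons, had 0.20 ± 0.04 in brain (adjusted p = 0.00985, limma), against 0.50 in liver/kidney and 0.33 in testis. Of 4 olfactory sensory neuron genes Adcy3, the adenylyl cyclase of odorant signalling, was higher by 0.13 ± 0.04 (adjusted p = 0.0489, limma), against 0.01 and 0.07 in liver/kidney and testis.

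Among receptors, 2 of 15 glutamate receptor subunits were higher and 0 lower, beside 4.93% and 2.88% of all genes. Grik1, a kainate receptor subunit, had 0.18 ± 0.04 in brain and 0.18 in liver/kidney but -0.26 in testis, and stayed brain-weighted in 14 of the 21 runs. Grin2d, an NMDA receptor subunit, had 0.14 ± 0.03 in brain and 0.22 in liver/kidney. A probe of the AMPA receptor subunit Gria3 was at 0.25 ± 0.07, with 0.61 in mus and 0.50 in ssp but -0.04 in dom and -0.09 in cas, and its other probe stood at 0.02. Of 15 GABA and glycine receptor subunits 1 was higher: Gabra5, an extrasynaptic subunit of hippocampus, at 0.14 ± 0.03 (adjusted p = 0.00493, limma). Its ssp arrays ran from 0.22 through 0.36 to 0.45, above all 6 dom arrays (-0.05 to 0.04), and the dom mean was just below 0, so it lacked 1 sign in all groups. Of 15 monoamine genes only Htr7, a serotonin receptor, was called, at -0.09 ± 0.03, and in 9 of the 21 runs.

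Neuropeptide and activity lists held few called genes, where 7.81% of all genes were called. Penk, proenkephalin of striatal projection neurons, was higher by 0.31 ± 0.09 (adjusted p = 0.0442, limma), with 0.81 in mus, 0.41 in ssp and 0.03 in dom. The cas arrays gave 0.24, 0.21 and -0.45. Its mus arrays ran from 0.28 through 0.84 to 1.26 and lay above all dom arrays (-0.23 to 0.17). It was called in 8 of the 21 runs that left out 1 array. Of 10 hypothalamic peptides Pmch, the precursor of melanin-concentrating hormone, fell by 0.11 ± 0.03 and was below 0 on 19 of 20 arrays. None of 19 immediate early genes was called, Fos being at -0.10 and Arc at -0.01. Of 12 glucocorticoid response genes 1 was called, Klf9. Of 14 clock genes 2 were lower: Rora at -0.26 ± 0.06, against -0.73 in liver/kidney, and Nr1d1 at -0.16 ± 0.05, which was called in 8 of the 21 runs and had -0.09 without the second cas array (adjusted p = 0.144, limma). Nr1d1 lacked 1 sign in all groups. The hour at which tissue was taken is not given in the labels.

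**Figure D4:**
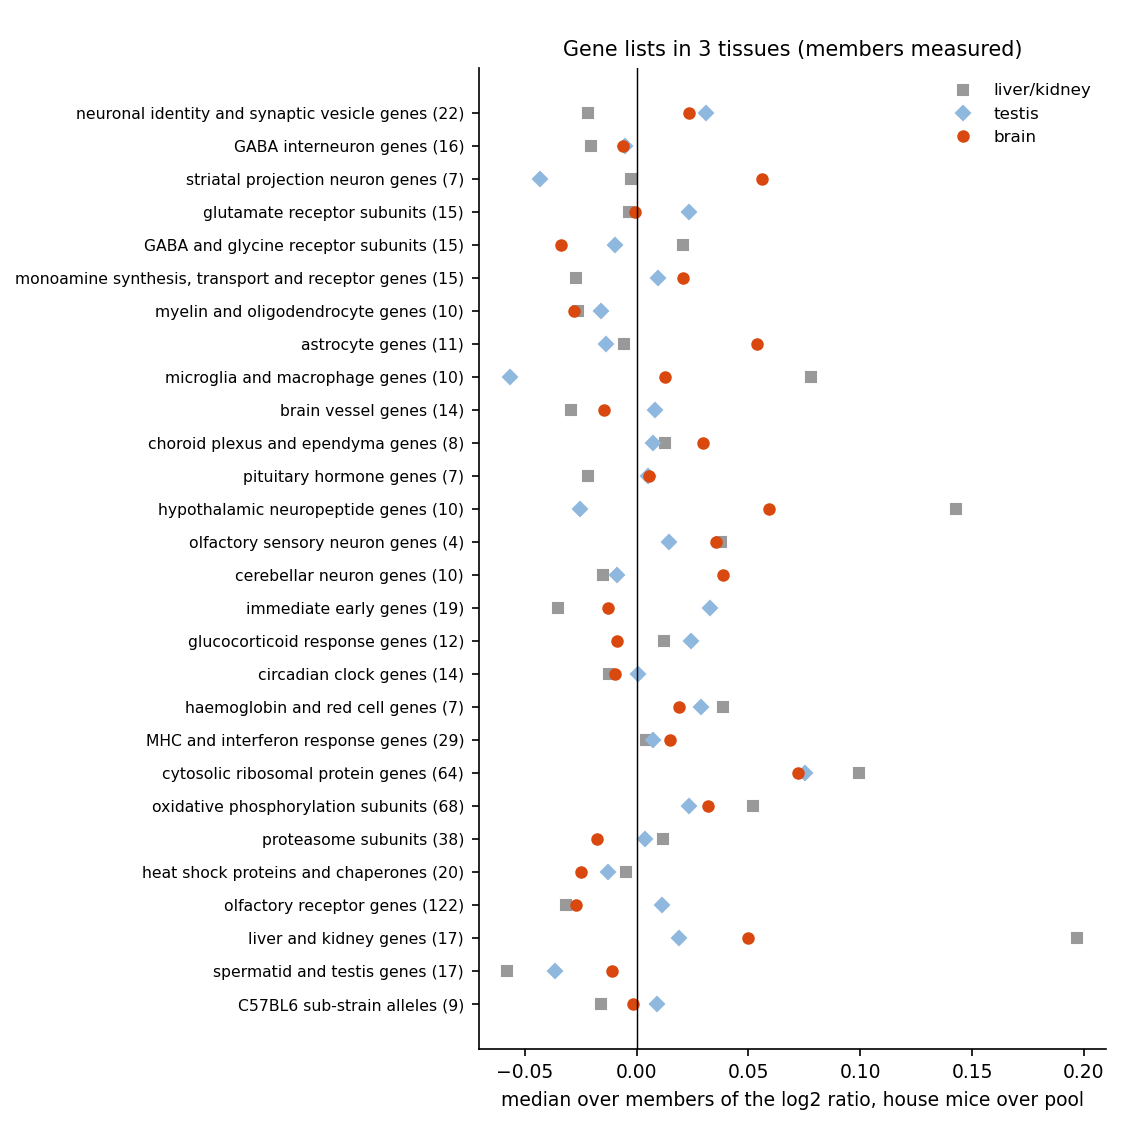
Median over the measured members of each gene list of the log2 ratio of house mice over the C57BL6 pool in brain (circles), liver/kidney (squares) and testis (diamonds), with the number of members in brackets. Ribosomal protein genes have the highest brain median (0.07), with 0.10 in liver/kidney and 0.08 in testis, and the brain medians of the neural lists lie within 0.06 of 0.

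Ribosomal protein genes, whose products with ribosomal RNA form the cytosolic ribosome, were the list with most members called in 1 direction. Of 64 measured, 15 were higher and 0 lower, beside 4.93% and 2.88% of all genes, and 49 lay above 0. Of the 15, Rplp2 and Rps12 lacked 1 sign in all groups. The median was 0.07 in brain, against 0.10 in liver/kidney and 0.08 in testis. Only Rpl21 was brain-weighted (0.22 ± 0.06). The third cas array stood at 1.18 for it, and without that array its mean was 0.13 (adjusted p = 0.0319, limma) and its difference from the other tissues did not pass (adjusted p = 0.224, limma). In the list 5 members were lower in brain than in the other tissues and 1 higher, beside 2.74% and 4.4% of all genes (7.13% in both directions). Per array, the list's median averaged 0.14 ± 0.07 in ssp (SD, n = 6), 0.06 ± 0.05 in dom (n = 6), 0.04 ± 0.05 in mus (n = 6) and 0.02 ± 0.02 in cas (n = 3). After Rpl41 the smallest p-values were those of Rpl26 (0.27 ± 0.04), Rpl38 (0.43 ± 0.07) and Rps7 (0.23 ± 0.04). Rpl26 was above 0 on 19 of 21 arrays, and spretus had a mean of 0.56. Ribosomal protein genes have many near-identical pseudogenes, and what their transcripts add to a probe was not tested.

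The bases just before the start of these 4 genes are shown because these had the smallest p-values of the 15 members called higher. They come from RefSeq (GRCm38.p6) and are read along the strand of the gene, with capitals at matches to the ETS-family core CCGGAAG or its reverse complement CTTCCGG.
Rpl41 (chr10:128549169-128549288, minus strand): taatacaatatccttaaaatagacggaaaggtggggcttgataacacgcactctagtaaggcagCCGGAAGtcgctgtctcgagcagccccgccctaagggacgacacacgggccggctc
Rpl26 (chr11:68901446-68901565, plus strand): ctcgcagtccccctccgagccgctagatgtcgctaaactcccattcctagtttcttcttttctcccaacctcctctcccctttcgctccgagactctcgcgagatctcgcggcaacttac
Rpl38 (chr11:114668460-114668579, plus strand): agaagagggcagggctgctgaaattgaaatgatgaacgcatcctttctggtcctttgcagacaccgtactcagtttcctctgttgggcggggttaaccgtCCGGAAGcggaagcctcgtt
Rps7 (chr12:28635954-28636073, minus strand): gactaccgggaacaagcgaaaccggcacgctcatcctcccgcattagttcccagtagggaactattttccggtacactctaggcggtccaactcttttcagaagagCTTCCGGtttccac
In the 250 bases before a start, on either strand, 7.83% of 27025 genes held this motif. Of the 53 measured ribosomal protein genes with a RefSeq promoter, 17 held it (32.1%). The share was 5 of 14 among those higher in brain and 12 of 39 among those not called. A match is a description of the letters and not of binding.

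Oxidative phosphorylation subunits had the next highest count. Of 68 measured, 11 were higher and 1, Ndufa6, was lower, beside 4.93% and 2.88% of all genes. Of the 68, 47 lay above 0, with a median of 0.03. Atp5j, a coupling subunit of ATP synthase, was highest at 0.32 ± 0.07 (adjusted p = 0.0106, limma), with 0.26 in liver/kidney and 0.64 in testis. The others higher included 3 further ATP synthase subunits, Atp5e (0.20 ± 0.05), Atp5a1 (0.18 ± 0.05) and Atp5b (0.12 ± 0.04). Of the members called higher, Atp5a1, Atp5b, Ndufv1, Cox4i1 and Ndufa4 lacked 1 sign in all groups. Cox6a2, a subunit of cytochrome oxidase found mainly in muscle, had 0.17 ± 0.04 in brain and -0.39 in spretus brain. None of the list was brain-weighted. None of 38 proteasome subunits was called, with a median of -0.02.

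**Figure D5:**
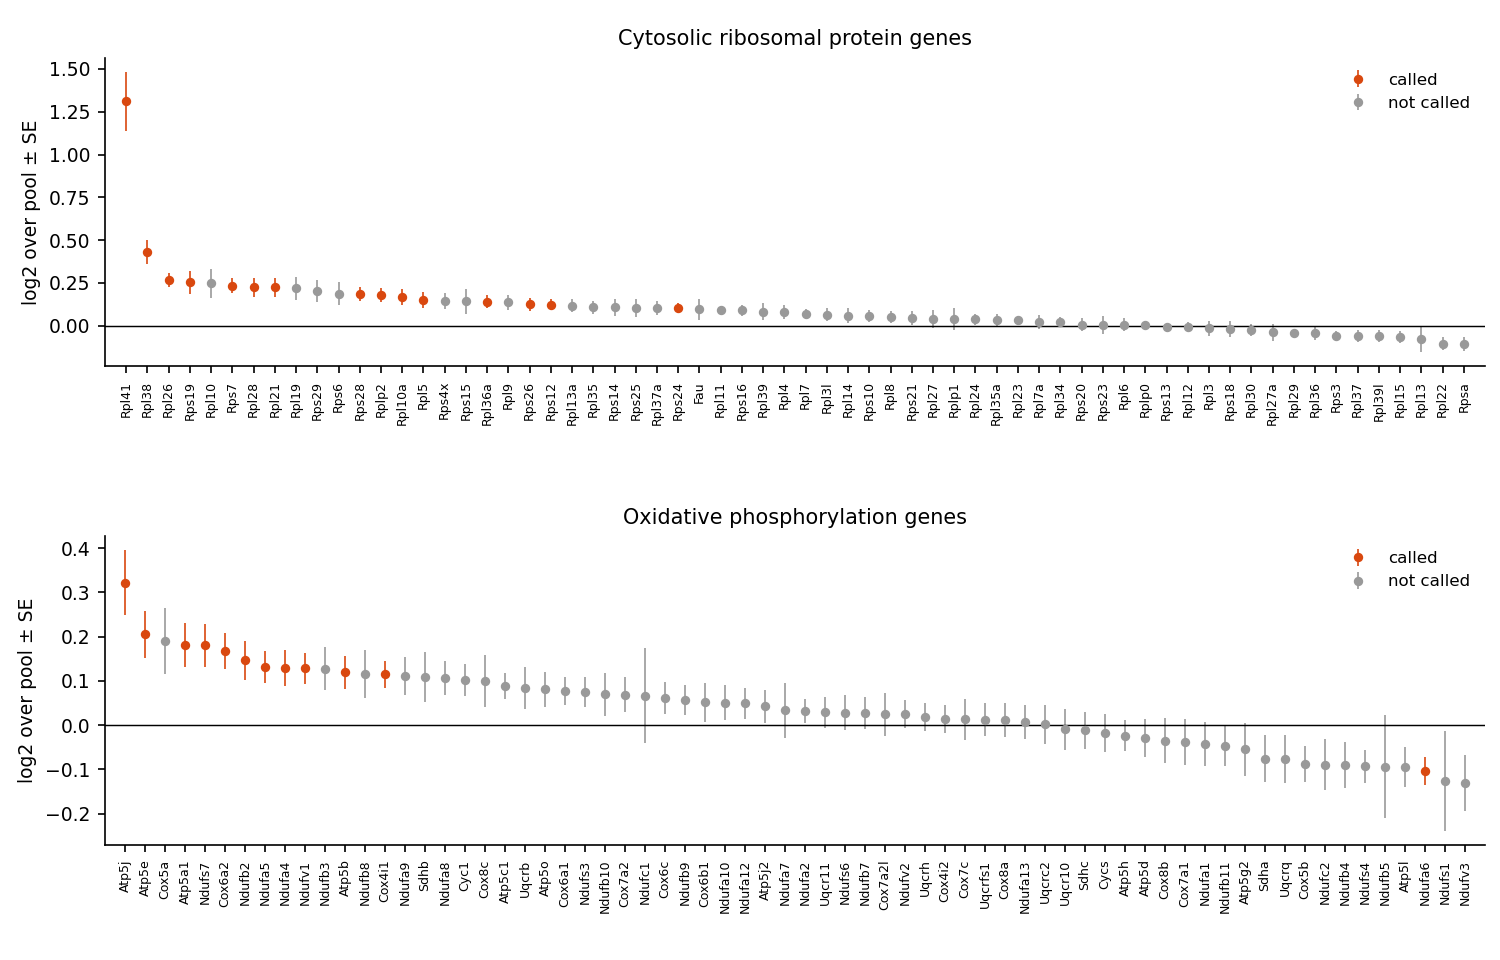
Mean log2 ratio over the C57BL6 pool in brain for each measured ribosomal protein gene (above) and oxidative phosphorylation gene (below), sorted by value, with bars of 1 standard error, called genes in orange and the others in grey. The called ribosomal protein genes all lie above 0, led by Rpl41 at 1.31, and 11 of the 12 called oxidative phosphorylation genes do.

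Blood and immune genes were called singly. Beside the counts below, 4.93% of all genes were higher and 2.88% lower. Of 7 haemoglobin and red cell genes 2 were higher, Hba-a1 (0.22 ± 0.04) and Hbb-b2 (0.24 ± 0.05). Both were highest in ssp, at 0.52 and 0.69, and near 0 in mus, at -0.06 and 0.03. In liver/kidney they stood at 0.64 and 0.35. Haemoglobin marks blood left in a tissue, and its part in the other results was not tested. The chains have near-identical copies that a probe may not separate. Of 29 MHC and interferon genes only Tap2, a peptide transporter of antigen presentation, was called, at 0.14 ± 0.04, and it had 0.09 without the third cas array (adjusted p = 0.0793, limma). Heat shock genes gave 1 higher, Hspb8 (0.20 ± 0.06), and 1 lower, Hspa8, of 20. Of 122 olfactory receptor genes 2 were higher and 4 lower. Of 17 liver and kidney genes none was called, with a median of 0.05 in brain and 0.20 in liver/kidney. Of 17 testis genes Odf2 was higher (0.19 ± 0.05) and Spata3 lower (-0.12 ± 0.03). Without the third cas array Hspb8 (adjusted p = 0.055, limma), Spata3 (adjusted p = 0.104, limma) and the brain-weighted receptor Olfr876 (adjusted p = 0.0886, limma) did not pass. Of the 21 runs that left out 1 array, Hspb8 was called in 18, Spata3 in 12 and Olfr876 in 20.

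A last list held genes for which some C57BL6 sub-strain carries a lost or weak allele, since these could set the pool apart. None of 9 measured genes was called in brain against the pool. Gabra2, a GABA receptor subunit, came closest at 0.10 ± 0.03 (adjusted p = 0.054, limma), above 0 on 18 of 21 arrays, and its other probe stood at -0.02. Nnt, the mitochondrial transhydrogenase, was at -0.11 ± 0.05 (adjusted p = 0.156, limma) in brain and at -0.40 in liver/kidney. H2-Ea, an MHC class II chain, was at 0.07 ± 0.11. A single dom array stood at 2.39 for it, and the other 5 dom arrays lay between -0.03 and 0.45. Cdh23 was at -0.002 in brain, but above the mean of the other tissues by 0.30 (adjusted p = 0.00361, limma), a difference called in 21 of 21 runs. The labels do not name the sub-strain of the pool. Mx1 had -0.06 and Mx2 0.04, with dom at 0.20 and 0.23.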

How the data were processed

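The deposited series table gives, per spot and array, a log ratio made by the authors, taken as log2. The sources used here do not give its base, the scanner, or how background was corrected and arrays normalised. Values ran from -5.71 to 5.77, and deposited brain medians from -0.03 to 0.02. Channel contents come from the labels. Of 46128 spots, 22320 neighbouring pairs were averaged and 1488 single spots left out, and 232 Gapdh pairs joined into 1 probe. Of 22089 probes, 15801 had 1 gene symbol in GEO's platform annotation, 294 several and 5994 none. Arrays were centred on their median. A probe needed 2 values in every group. limma 3.58.1 (R 4.3.3, with the data.table package at 1.17.8) fitted 1 coefficient per group, with 21 arrays a tissue, or 63 for differences between tissues. P-values measure the spread between these mice. In simulated data 68% of probes changed by 0.2 log2 were called in brain against the pool, and 88% at 0.3. The simulated noise was independent between arrays and the change equal in all groups. These shares therefore do not measure the sensitivity in the measured data.

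Named genes, without clone names and predicted models and each by its probe with the smallest brain p, follow a rule: up to 8 brain-weighted and 4 shared genes with the largest means in each direction, up to 2 brain-weighted and 2 other called members per list, and all alleles listed for C57BL6. Other names were chosen after values were seen. Members and lists were chosen with earlier results of these data known. Promoters were read with pandas 2.3.3 and figures drawn with matplotlib 3.10.9 (numpy 2.4.6, Python 3.11.15). Genome positions of probes are not given, because the array's build is not stated.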

Additional observations from a re-analysis of the deposited data

Results flagged for a closer look

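A gene's highest or lowest array was set against the rest of its group by Dixon's test, in dom, mus and ssp. Of 195 gene and group pairs 22 exceeded the limit, where chance gives about 1 in 20. The first dom array accounted for 6, with Tuft1 at 0.71, Wsb2 at -0.97, Bace2 at -0.74, Hmga2 at 0.88, Mrto4 at 0.65 and Reln at -0.38. Array 13 of dom held 4: Rrh at -0.79, Dio2 at -0.60, Htr7 at -0.37 and Cdh23 at -0.58. Array 5 of ssp held 4, with Ptma at 0.94, Wsb2 at -0.62, Eno2 at 0.46 and Penk at 1.80. Array 10 of dom had Eno2 at 0.44 and Odf2 at 0.65. Array 5 of dom had H2-Ea at 2.39. In mus, Rrh was -0.80 on array 4, Rpl41 was 0.34 on array 8, the array with conflicting labels, Mrto4 was -1.01 on array 5 and H2-Ea was 0.46 on array 2. Mmrn1 was -0.35 on array 6 of ssp.

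Some genes were called with opposite signs in brain and another tissue, with the difference itself past the threshold. Brain minus liver/kidney was -0.57 for Cmas. Brain minus testis was 0.46 for Mrpl38, 0.44 for Grik1 and 0.28 for Aldoc. In all, 1263 probes differed between brain and the mean of the other tissues.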

How the results depend on the processing

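Duplicate spots limit the depth. The first spot of each pair alone called 965 brain probes, 789 with 1 sign in all groups and 129 brain-weighted, with 1 in dom, 18 in cas and 903 in ssp. The second spot called 867, 699 and 110, with 158 shared by 3 tissues and 1, 216, 17 and 894 in dom, mus, cas and ssp. With at least 1.5-fold asked, 32 were called, 30 with 1 sign, 21 shared, 1 brain-weighted and 4 in brain minus the other tissues, with 3 in dom, 64 in mus and 57 in ssp. Counts per group also moved. Quantile normalisation gave 485, 710, 0 and 722 in dom, mus, cas and ssp, and array weights 531, 1156 and 17 in dom, mus and cas. With spretus in the fit dom had 31 and cas 30, without centring dom had 10, and with 1 value a group allowed cas had 142. The cause of these moves was not tested.

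Within the first missing-spot set 1966 probes were called with 1 sign, and 158, 658 and 320 in dom, mus and ssp. Within the second set 19 were called, 18 with 1 sign, 0 shared, 0 brain-weighted and 0 between tissues, with 0 in mus, 0 in cas and 1 in ssp. Brain minus the other tissues turned sign there for Npas3 (-0.11), Gabra5 (-0.010) and Olfr876 (0.041). In liver/kidney the set could not be fitted beside the groups.

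Means over 3 groups were chosen after seeing the data. Without dom they gave 627 called, 603 with 1 sign, 125 shared and 123 brain-weighted, with 176, 0 and 704 in mus, cas and ssp. Without mus they gave 348, 329, 101 and 16, with 236 between tissues, 0 in cas and 1020 in ssp. Without cas they gave 3591, 3147 and 611 brain-weighted, with 2156 between tissues, 40 in dom and 652 in mus. Without ssp they gave 228, 210, 54 and 25, with 365 between tissues, 0 in dom and 3 in cas. The stricter rules, also added later, left 3 and 41 brain-weighted probes.

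Leaving out 1 array at a time gave 1069 to 1746 called, 776 to 1421 with 1 sign, 201 to 249 shared, 151 to 327 brain-weighted and 1063 to 1426 between tissues. It gave 0 to 73 in dom, 134 to 653 in mus, 2 to 751 in cas and 714 to 2596 in ssp.

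With the animal number as a replicate block, brain minus the other tissues called 1314 probes and 233 were brain-weighted, and no named gene changed its call. Within an animal number the consensus correlation over probes from limma was 0.01. Separately, deviations from the group mean were correlated between brain and another tissue of the same number, and 3 of 42 pairs were over 0.1. Low likeness between tissues cannot show whether the numbers pair the samples.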
